A study of Homo sapiens with 9 samples.

Results

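Solute carriers are membrane proteins that move small molecules such as amino acids, sugars, vitamins, nucleotides and ions across the plasma membrane and the membranes of lysosomes, the Golgi apparatus and mitochondria. They do so by facilitated diffusion or by coupling one solute to the gradient of another, without hydrolysing ATP themselves. Tumour cells depend on them for the nutrients of growth, and many members, among them several of the genes below, have no settled substrate.

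The genes described here are those whose symbol in the platform's annotation starts as a solute carrier symbol does (SLC, a family number, A and a member number, or SLCO), with pseudogenes left out and with a mean log2 signal of 4 or more over the 3 arrays of at least 1 group. Of 33 genes with such a symbol, 1 pseudogene was left out, and 13 of the other 32 had that signal, out of 14884 genes tested on the array. Each of the 13 was read by a single feature. Of these 13, 11 encode proteins of transporter families. SLC9A3-OT1 is a noncoding transcript that overlaps a sodium-proton exchanger gene, and SLC2A4RG encodes a zinc finger protein that regulates the glucose transporter gene SLC2A4, so the label of transporter does not hold for these 2. Most of the 11 carry a recent SLC symbol for a protein long known by another name, and those names are given below. The well-known nutrient carriers SLC2A1, SLC7A5, SLC3A2, SLC1A5, SLC7A11, SLC16A1, SLC16A3, SLC30A1, SLC39A14 and SLC38A2 were not analysed here, because the annotation used here pairs no feature with any of these symbols. The 32 are thus mostly recently renamed genes and noncoding RNAs, and 13 of 32 is not a share of all solute carriers of these cells.

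The cells were BT-549, a human breast cancer cell line of the triple-negative kind, which lacks the estrogen and progesterone receptors and HER2 amplification. In one arm they received a mimic of miR-150-5p, a mature microRNA, at 50 nM. One control arm received a non-specific small RNA at 50 nM (negative control), and the other the lipid transfection reagent without RNA (mock). Fresh medium was given at 24 h, and RNA was taken 72 h after transfection from 3 samples per arm, all of this 1 line. Nothing in the labels tells whether the 3 grew as separate cultures, so the spread behind each p-value may be technical.

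Whole-transcript arrays gave 1 log2 signal per feature. Array medians lay between 2.43 and 2.48, and the correlation between arrays across features was 0.981 to 0.989 within groups and 0.977 to 0.986 between groups, where features are not independent replicates. The label of the line was checked on marker genes. VIM, FN1, AXL and CD44, of mesenchymal cells, had group means between 7.07 and 9.18, and ESR1, PGR, EPCAM, FOXA1 and KRT19, of luminal epithelium, lay between 1.77 and 2.82, close to the array median. KRT18, GATA3 and KRT8 had signal, between 3.66 and 7.73. The single blood cell marker with a symbol here, CD14, lay between 2.12 and 2.41. As RNA was taken from whole cultures, fewer cells with a transcript and less of it per cell cannot be told apart.

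The 13 were selected on their group mean signals, so the levels are given as a description. All 3 groups were at or above it for 11 of the 13. SLC66A1 reached it in the mimic arrays (mean 4.10) and not in the negative control (3.85) or mock (3.98). SLC66A3 reached it in mock (4.00) and not in the mimic (3.78) or negative control (3.91). SLC68A1, the next inside, had 4.31 in the mimic, 4.42 in the negative control and 4.18 in mock. Just outside were SLC49A3, with 3.64, 3.80 and 3.98 in the mimic, negative control and mock arrays, SLC61A1, with 3.72, 3.55 and 3.36, and SLC67A2, with 3.52, 3.34 and 3.34. Signals of different features are not set against each other, because probes differ in brightness.

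**Figure D1:**
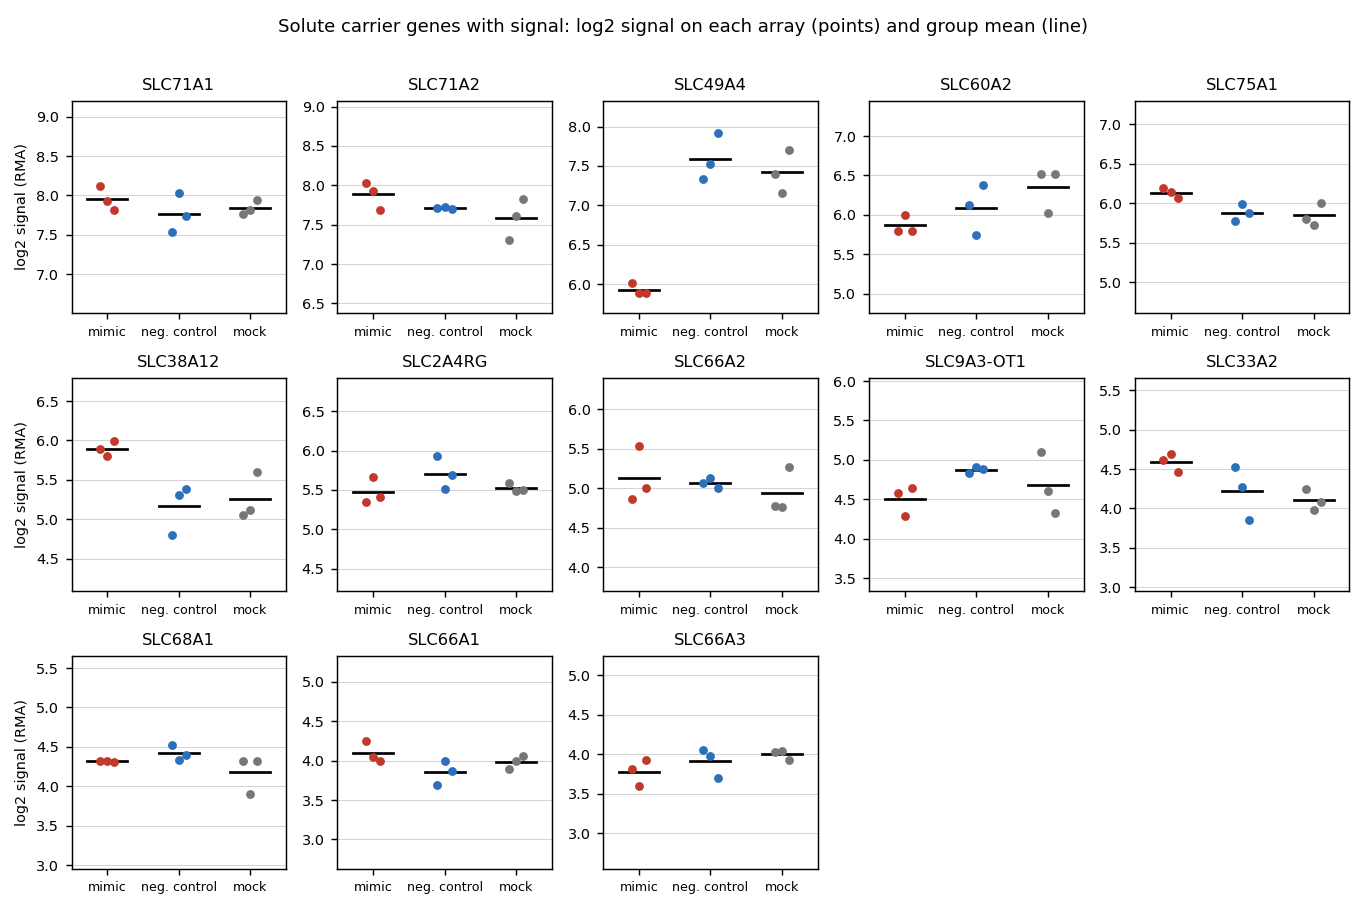
Log2 signal (y axis) of the 13 solute carrier genes on each of 3 mimic, 3 negative control and 3 mock arrays, with points for arrays and a line for the group mean; every panel spans the same number of log2 units. SLC49A4 shows mimic arrays at 5.88 to 6.02, all below the negative control and mock arrays, and SLC38A12 shows mimic arrays at 5.80 to 6.0, all above them.

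Of the genes described here, SLC49A4 held the clearest difference. SLC49A4, formerly DIRC2, is a lysosomal membrane protein whose gene was found at a chromosome break in a family with kidney cancer. It read 6.02, 5.89 and 5.88 on the mimic arrays, against 7.33, 7.52 and 7.92 on the negative control and 7.40, 7.16 and 7.71 on the mock arrays. The mimic arrays were low and lay close together, and they did not overlap with either control, whereas the controls overlapped each other. The means were 5.93 ± 0.08 in the mimic, 7.59 ± 0.30 in the negative control and 7.42 ± 0.28 in mock (SD, n = 3 each).

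Relative to the negative control, SLC49A4 fell by 1.66 in log2 signal in the mimic (SE 0.167, 3.16-fold lower, 95% interval -2.04 to -1.29, limma adjusted p = 0.0016). Of the 14884 genes tested it had the lowest log2 difference in that comparison. Against mock it fell by 1.49 (SE 0.167, 2.81-fold lower, interval -1.87 to -1.12, limma adjusted p = 0.0022), where its rank from the lowest was 9. These 2 comparisons share the mimic arrays. Between the negative control and mock the difference was 0.17 ± 0.167 (SE, interval -0.21 to 0.54, adjusted p = 0.79). With each of the 9 arrays left out in turn the call was kept in both mimic comparisons, with adjusted p up to 0.012 against the negative control and 0.015 against mock.

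SLC66A1, the other lysosomal carrier, exports arginine and lysine from lysosomes and is also known as PQLC2 or LAAT1. Its arrays read 4.26, 4.04 and 4.00 in the mimic, 3.69, 4.00 and 3.87 in the negative control and 3.89, 3.99 and 4.06 in mock. The highest value was on a mimic array and the lowest on a negative control array, and the groups met at 4.00. Since it entered the set through the mimic arrays alone, no test of it is given. Its relative SLC66A3 (PQLC3), a less studied protein of the PQ-loop fold, read 3.81, 3.60 and 3.93 in the mimic, 4.06, 3.98 and 3.70 in the negative control and 4.03, 4.04 and 3.93 in mock, and entered through the mock arrays alone.

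SLC66A2 (PQLC1) is the third PQ-loop member. It read 4.87, 5.53 and 5.01 in the mimic, 5.06, 5.12 and 5.01 in the negative control and 4.78, 4.77 and 5.27 in mock. The groups overlapped, with 1 high array in the mimic and 1 in mock. The mimic minus negative control difference was 0.07 (95% interval -0.34 to 0.48) and the mimic minus mock difference 0.20 (-0.21 to 0.61), and neither passed.

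Among the members linked to amino acids or sugars, SLC38A12 had the largest difference. It was known as TMEM104 and is placed by its symbol in the SLC38 family, whose studied members carry neutral amino acids such as glutamine. Its arrays read 5.89, 5.80 and 6.0 in the mimic, against 4.80, 5.31 and 5.39 in the negative control and 5.05, 5.12 and 5.60 in mock. The mimic arrays lay above all 6 control arrays, and the controls overlapped each other, with the lowest value on a negative control array.

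The SLC38A12 difference missed the threshold over all genes. In log2 signal it was 0.73 ± 0.180 (SE) against the negative control (1.66-fold, interval 0.33 to 1.13, limma adjusted p = 0.065) and 0.64 ± 0.180 against mock (1.55-fold, interval 0.23 to 1.04, limma adjusted p = 0.088). Without mock 3, whose value was the highest of its group, it passed in both, with adjusted p of 0.043 against the negative control and 0.039 against mock, where the difference was 0.81. The negative control minus mock difference was -0.10 (interval -0.50 to 0.31).

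SLC60A2 (MFSD4B, also NaGLT1) was described in rat kidney as a sodium-dependent glucose carrier. It read 5.80, 6.0 and 5.80 in the mimic, 6.13, 5.74 and 6.38 in the negative control and 6.52, 6.02 and 6.52 in mock. The mimic arrays lay just below the mock arrays and overlapped the negative control. The mimic minus mock difference was -0.49 (SE 0.179, interval -0.89 to -0.09, limma adjusted p = 0.19), the mimic minus negative control difference -0.22 and the negative control minus mock difference -0.27, and none passed. SLC2A4RG, the regulator named for the glucose transporter GLUT4, read 5.35, 5.66 and 5.41 in the mimic, 5.93, 5.51 and 5.68 in the negative control and 5.58, 5.49 and 5.50 in mock, with the groups overlapping.

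Carriers of the major facilitator fold with other or unknown cargo made up the rest. SLC33A2 (MFSD3) is a relative of SLC33A1, which carries acetyl-CoA into the endoplasmic reticulum. Its arrays read 4.61, 4.69 and 4.46 in the mimic, 4.52, 4.27 and 3.86 in the negative control and 4.25, 3.99 and 4.08 in mock. The mimic arrays lay above mock and overlapped the negative control at its highest array. The log2 difference was 0.48 ± 0.156 (SE) against mock (interval 0.13 to 0.83, limma adjusted p = 0.13) and 0.37 against the negative control (interval 0.02 to 0.72, adjusted p = 0.28), so neither passed.

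SLC75A1 (MFSD10, or TETRAN) resembles bacterial tetracycline exporters. It read 6.19, 6.14 and 6.07 in the mimic, 5.77, 5.99 and 5.88 in the negative control and 5.80, 5.73 and 6.01 in mock. The mimic arrays lay above all control arrays by a small margin. The difference was 0.25 ± 0.0974 against the negative control (SE, limma adjusted p = 0.24) and 0.29 ± 0.0974 against mock (adjusted p = 0.15), and neither passed.

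SLC71A1 and SLC71A2 (MFSD14A and MFSD14B, first called HIAT1 and HIATL1) are close relatives, and loss of the first in mice leaves males sterile with malformed sperm heads. SLC71A1 read 8.12, 7.94 and 7.81 in the mimic, 7.53, 8.03 and 7.74 in the negative control and 7.77, 7.82 and 7.94 in mock. SLC71A2 read 8.03, 7.93 and 7.69 in the mimic, 7.71, 7.73 and 7.70 in the negative control and 7.31, 7.61 and 7.83 in mock. Both overlapped between all groups. Their differences in the 3 comparisons lay between -0.08 and 0.30, and the interval of the largest, SLC71A2 in the mimic against mock, ran from 0.0020 to 0.60 with limma adjusted p = 0.28. How far probes of one of these relatives also bind the other was not tested.

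SLC68A1 (MFSD13A or TMEM180), a membrane protein studied in colorectal cancer, read 4.32, 4.32 and 4.31 in the mimic, 4.52, 4.33 and 4.39 in the negative control and 4.32, 3.90 and 4.32 in mock. The negative control lay above both other groups, with its lowest array close to the highest of each. The noncoding SLC9A3-OT1 read 4.58, 4.29 and 4.65 in the mimic, 4.83, 4.91 and 4.88 in the negative control and 5.10, 4.61 and 4.32 in mock. Its mimic arrays lay below the negative control arrays, while mock spread across both, and its mimic minus negative control difference was -0.37 (SE 0.176, limma adjusted p = 0.35).

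**Figure D2:**
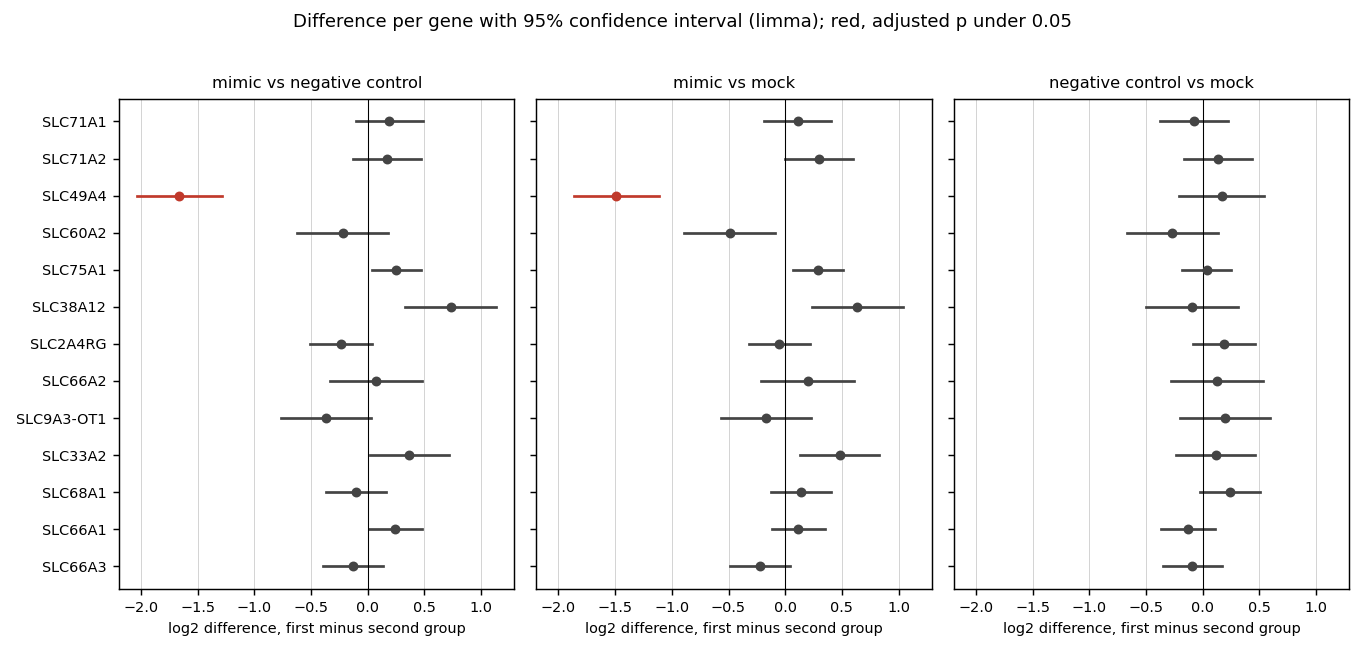
Log2 difference, first minus second group (x axis), of the 13 genes (rows) in the 3 comparisons (panels); points are limma estimates, bars are 95% confidence intervals, and red marks an adjusted p under 0.05. SLC49A4 stands at -1.66 and -1.49 in the mimic comparisons and at 0.17 in the negative control against mock; the SLC38A12 intervals begin at 0.33 and 0.23. SLC66A1 and SLC66A3 entered through 1 group alone, so their estimates are a description.

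The mimic set against the negative control asks what the microRNA does beyond the delivery of a small RNA. In it 0 of the 13 genes rose, 1 fell, SLC49A4, and 12 did not pass, where 3.18% of all genes tested (1.76% upward and 1.42% downward) and 6.76% of the 6317 genes with the same signal were called. The median log2 difference of the 13 was 0.07, beside -0.0044 over all genes and 0.06 over those with the same signal. The 3 arrays of one group lay apart from those of the other for 5 of the 13, beside 18.6% of all genes and 30.3% of genes with that signal. Because the signal in each group decided which genes entered, SLC66A1 and SLC66A3 through 1 group alone, these counts describe the 13 and test nothing about them.

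The mimic set against mock gives the whole difference from cells without any small RNA. Again 0 of the 13 rose, SLC49A4 fell and 12 did not pass, where 3.90% of all genes (2.28% upward and 1.62% downward) and 8.30% of those with the same signal were called. The median was 0.12, beside 0.00034 over all genes and 0.07 over those with that signal. Groups lay apart for 5 of the 13, SLC49A4, SLC38A12, SLC75A1, SLC33A2 and SLC60A2, beside 20.2% of all genes and 33.6% of genes with that signal.

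The negative control set against mock asks what a small RNA without the microRNA's sequence does. By limma 0 of the 13 were called, 0 had an unadjusted p under 0.05, and 0 were called with the replicate number as a block, where 0.645% of all genes (0.168% upward and 0.477% downward) and 1.42% of those with the same signal were called and 11.0% of all genes had an unadjusted p under 0.05. The differences of the 13 ran from -0.27 (SLC60A2) to 0.24 (SLC68A1), with a median of 0.11 beside 0.0076 over all genes and 0.016 over those with the same signal. Groups lay apart for SLC68A1 and for 0 of the other 12, beside 12.0% of all genes and 18.0% of genes with that signal. This comparison shares its negative control arrays with the first and its mock arrays with the second, so the values of the 3 are given side by side and not as independent of each other.

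**Figure D3:**
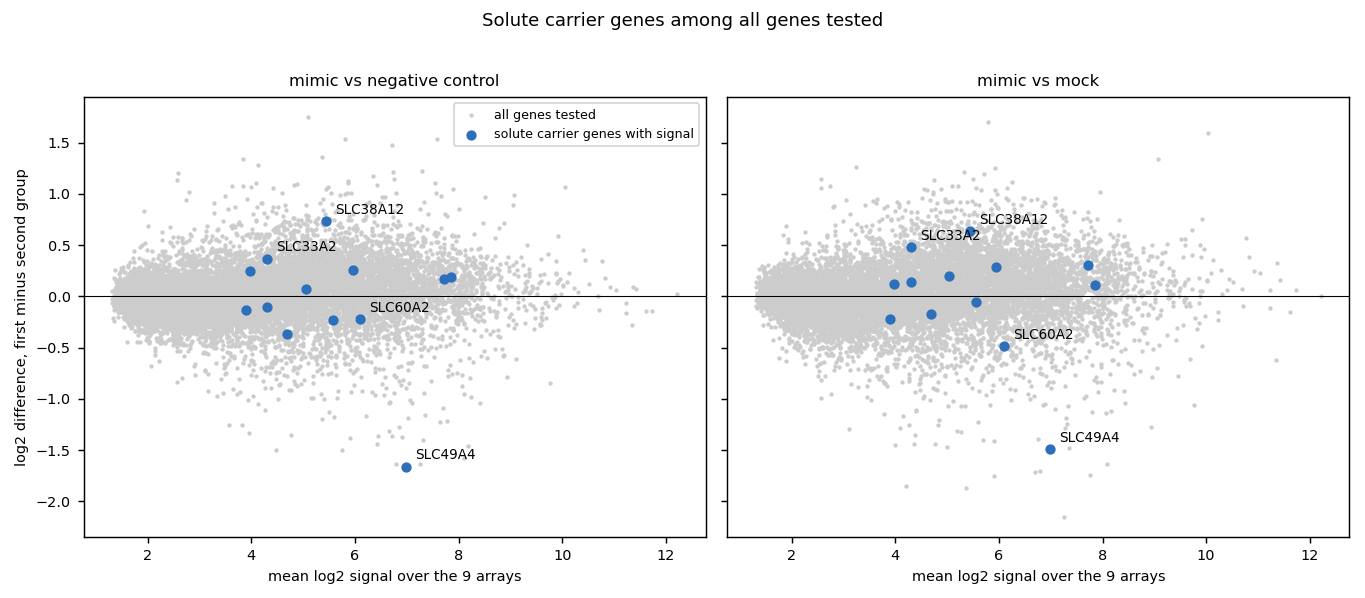
Log2 difference (y axis) against the mean log2 signal over the 9 arrays (x axis) for the 13 solute carrier genes (blue) among 14884 genes tested (grey), in the mimic against the negative control and against mock. SLC49A4, at -1.66 and -1.49, lies at the lower edge of all genes, while the others lie within the grey cloud between -0.49 and 0.73.

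The solute carrier families also hold proteins whose genes keep other symbols, of which 43 had been listed from general knowledge. Of these, 5 carry a solute carrier symbol here and are treated above, and 28 others were tested. Against the negative control 2 of the 28 rose, 1 fell and 25 did not pass, where 3.18% of all genes were called, with a median log2 difference of -0.0035 beside -0.0044 over all genes. Against mock 2 rose and 1 fell, where 3.90% of all genes were called, with a median of 0.07 beside 0.00034. In the negative control against mock limma called 0 of the 28, beside 0.645% of all genes, and 5 had an unadjusted p under 0.05, beside 11.0% of all genes. Of genes with a signal of 4 or more in a group, 6.76%, 8.30% and 1.42% were called in these comparisons. Most but not all of the 28 reach that signal. The genes called, which all reach it, were MTCH2 and the sideroflexins SFXN1, SFXN2 and SFXN4, all of mitochondria. Other mitochondrial genes of the list, such as MPC1, MPC2, LETM1 and MTCH1, were called in no comparison. NIPA2 was not called either, with mimic arrays above all control arrays (0.53 against the negative control and 0.55 against mock, limma adjusted p = 0.072 and 0.057). UNC93B1, also not called, had mimic arrays below all control arrays (-0.50 and -0.52, adjusted p = 0.10 and 0.074).

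MTCH2, a carrier-like protein of the outer mitochondrial membrane that inserts other proteins into it, read 7.85, 7.65 and 7.77 in the mimic, against 8.63, 8.98 and 8.80 in the negative control and 8.68, 8.46 and 8.90 in mock. The mimic arrays lay below all 6 others. Relative to the negative control, MTCH2 fell by 1.05 in log2 signal (SE 0.129, 2.06-fold lower, limma adjusted p = 0.0036) and by 0.92 against mock (SE 0.129, 1.89-fold lower, adjusted p = 0.0058). Both calls were kept with each array left out, with adjusted p up to 0.020 and 0.032.

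Sideroflexins sit in the inner mitochondrial membrane, where SFXN1 carries serine. SFXN2, linked to iron metabolism, read 5.39, 5.57 and 5.39 in the mimic, 4.65, 4.53 and 4.78 in the negative control and 5.07, 4.98 and 5.12 in mock, so that the mimic was highest, mock next and the negative control lowest, with no overlap. SFXN2 rose by 0.79 ± 0.0938 (SE) against the negative control (1.73-fold, limma adjusted p = 0.0030), also with each array left out, while its difference against mock was 0.39 (adjusted p = 0.053) and that of the negative control against mock -0.40 (adjusted p = 0.11). Without negative control 2 the rise of SFXN2 against mock passed (adjusted p = 0.046).

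SFXN4, needed for assembly of respiratory complex I, read 5.32, 5.34 and 5.32 in the mimic, 5.02, 4.89 and 4.78 in the negative control and 4.71, 4.68 and 4.45 in mock, and the 3 groups did not overlap. It rose by 0.71 ± 0.0958 (SE) against mock (1.64-fold, limma adjusted p = 0.0052), also with each array left out, and by 0.43 against the negative control (adjusted p = 0.043). The second call was lost without any 1 array other than mock 3, with adjusted p up to 0.13. SFXN1 read 4.73, 4.54 and 4.52 in the mimic, 4.17, 4.24 and 4.13 in the negative control and 3.92, 4.13 and 4.24 in mock. It rose by 0.50 ± 0.102 against mock (1.41-fold, limma adjusted p = 0.030) and differed by 0.42 against the negative control (adjusted p = 0.063). The call against mock was lost without mock 1 or 2, negative control 1 or any mimic array, with adjusted p up to 0.11. The remaining sideroflexins measured, SFXN3 and SFXN5, passed in none of the comparisons and overlapped between all groups. The mimic minus negative control difference was -0.18 for SFXN3 and 0.13 for SFXN5 (limma adjusted p = 0.67 for each), and the mimic minus mock difference was -0.03 for SFXN3 and 0.24 for SFXN5 (adjusted p = 0.97 and 0.33).

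**Figure D4:**
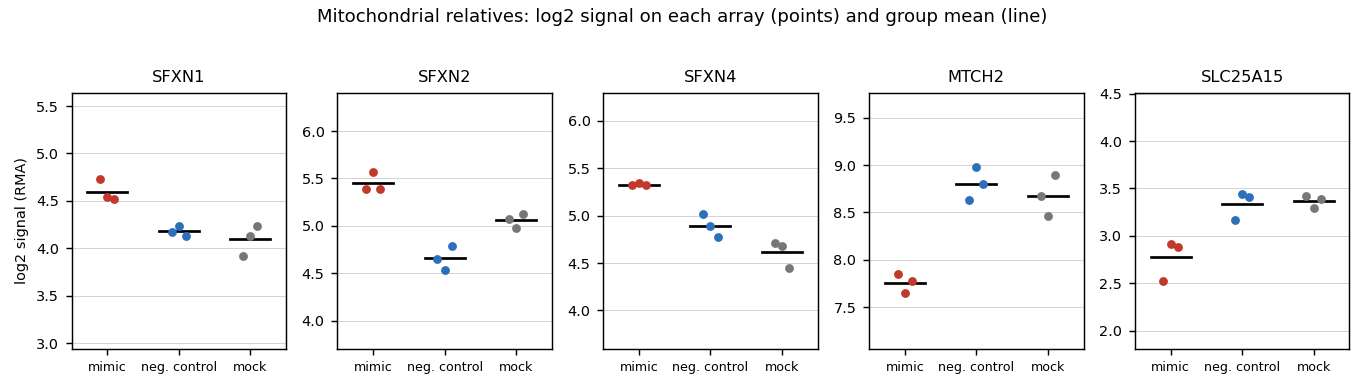
Log2 signal (y axis) of SFXN1, SFXN2, SFXN4, MTCH2 and SLC25A15 on each mimic, negative control and mock array, with points for arrays and a line for the group mean. The mimic arrays lie above all 6 control arrays for SFXN1, SFXN2 and SFXN4 (SFXN4 at 5.32 to 5.34) and below them for MTCH2 (7.65 to 7.85) and SLC25A15 (2.52 to 2.92).

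Genes that work beside solute carriers were counted from further lists. Of 18 measured partner and chaperone genes, such as BSG, which escorts lactate carriers to the cell surface, limma called 0 in any comparison, with 4, 3 and 2 at an unadjusted p under 0.05 in the mimic against the negative control, the mimic against mock and the negative control against mock. Of 14 metal storage and uptake genes 0 were called, with 1, 0 and 1 at an unadjusted p under 0.05. All of the 14 except MT1X, MT2A and MTF1 lay under the signal limit of 4 in every group. Of 21 glycolysis genes listed 10 were measured, and 0 of these were called, with 2, 1 and 3 at an unadjusted p under 0.05. Their mean signals over all arrays were near the limit of 4 for GAPDH (4.58), LDHA (4.30) and TPI1 (3.98). The rest lay between 5.54 (HK1) and 8.16 (GPI). How well these features report the main transcripts of their genes was not tested. Over all genes tested the shares called in the same comparisons were 3.18%, 3.90% and 0.645%. The shares at an unadjusted p under 0.05 were 16.0%, 17.5% and 11.0%. Beside these shares, a count of 0 called in lists this short says little about the genes listed. Of 29 listed ABC transporters, the pumps that do hydrolyse ATP, 0 were analysed here.

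Of 17 genes of the amino acid response, which raises amino acid synthesis and uptake when amino acids run short, 4 rose and 0 fell in the mimic against the negative control, 0 rose and 1 fell in the mimic against mock, and 0 rose and 3 fell in the negative control against mock, where 3.18%, 3.90% and 0.645% of all genes were called. Of genes with a signal of 4 or more in a group, which most of the 17 reach, 6.76%, 8.30% and 1.42% were called. The median log2 difference of the 17 was 0.21, 0.04 and -0.39 in these comparisons. Against the negative control, VLDLR, a lipoprotein receptor, kept its call with each array left out, and SESN2, a stress-induced regulator of growth signalling, lost it without mimic 1 (limma adjusted p = 0.060). ASNS and PSAT1, an enzyme of serine synthesis, each lost it without negative control 1 or 3 or any mimic array (adjusted p up to 0.097 and 0.089). In the mimic against mock the gene called was DDIT3, a stress-induced transcription factor, which lost its call without mock 1 or 3 or any mimic array (adjusted p up to 0.096). In the negative control against mock, VLDLR again kept its call, ASNS lost it without mock 1 or negative control 3 (adjusted p up to 0.093), and DDIT3 lost it without any 1 array other than mock 2 (adjusted p up to 0.18). In that comparison the replicate number as a block left the calls of VLDLR and ASNS (adjusted p = 0.020 and 0.040) and ended that of DDIT3 (0.12), and on the 6 arrays compared it ended all 3 (0.067, 0.12 and 0.18). ASNS, asparagine synthetase, had a mimic mean of 6.67, a negative control mean of 5.98 and a mock mean of 6.95. That pattern was known from earlier results of these data. Of 33 genes listed as ion-pumping ATPases 3 were measured, ATP13A1, ATP13A2 and ATP13A3, so they do not stand for that class. By limma 1 of the 3, ATP13A2, was called, in the mimic against mock alone. There 3.90% of all genes and 8.30% of genes with a signal of 4 or more in a group were called. ATP13A2 is a lysosomal pump that exports polyamines. ATP13A2 read 5.89, 5.83 and 5.70 in the mimic, 5.90, 5.70 and 5.79 in the negative control and 5.13, 5.36 and 5.52 in mock. It rose in the mimic against mock by 0.47 ± 0.111 (SE, 1.39-fold, limma adjusted p = 0.048), a call lost without any 1 array other than mock 3, with adjusted p up to 0.17, and the negative control lay above mock as well (0.46, adjusted p = 0.12).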

How the data were processed

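Per the submitters' processing notes, the authors made the deposited values with RMA, which corrects background, quantile-normalizes arrays and sums a feature's probes into a log2 signal. The software, its version and the probe set definition were not given in the sources. The table held 9 arrays, 53617 features and 0 missing values. The platform annotation gave 16098 features exactly 1 gene symbol, and the brightest feature by mean over the 9 arrays stood for each of 14884 genes. Gene types and older symbols came from a RefSeq table of GRCh38.p14, used for names. No probe or microRNA sequence and no genome coordinate was used.

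Groups follow the labels' titles. All genes were fitted in R 4.3.3 with limma 3.58.1 (functions lmFit and eBayes, all 9 arrays, 1 mean per group, 6 residual and 9.6 total degrees of freedom). Two-sided p-values took the Benjamini-Hochberg adjustment across these 14884 genes, and genes were called at an adjusted p under 0.05. On simulated data of 14884 genes for the mimic against the negative control, 50 of 100 genes planted at 0.5 and 77 of 100 planted at 1 (log2) were recovered, with 3 false calls. The planted genes were drawn from all genes tested, whatever their signal and spread, so these shares need not hold for the solute carrier genes. The genes, lists and alternatives were chosen with earlier results of these data known. The rule for named genes took called members, members crossing or next to the signal threshold, the members with the largest changes and called genes of the lists.

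Replicate numbers were checked by correlating deviations from group means across genes. Same-numbered negative control and mock arrays had r of 0.152, 0.225 and 0.147, and those of different number had r from -0.158 to 0.0224. Arrays of different number were as high elsewhere, with 0.240 for mimic 1 with negative control 2 and 0.217 for mimic 2 with negative control 3. The numbers may pair the negative control and mock arrays, but values of this size are weak evidence for it. For the mimic, same-numbered r ran from -0.292 to -0.0544. Alternatives were another quantile normalization, median centring, a signal filter, averaging the features of a gene, all features, array weights, trend and robust variance, the 6 arrays compared, a replicate block, an adjusted p under 0.01, a 1.5-fold minimum, 2 other member thresholds and leaving out each array. The number of arrays limits the precision.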

Additional observations from a re-analysis of the deposited data

How the results depend on the processing

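SLC49A4 was called in both mimic comparisons under all alternatives run. The count of called genes was 2 in place of 1, with SLC38A12 added, in the mimic against the negative control when only genes at or above the median signal were tested (adjusted p = 0.031), with array weights (0.047) and with the replicate block (0.042), although the mimic arrays did not deviate together with arrays of their number. Against mock it was 2 with the signal filter (0.043) and array weights (0.049). With 1 array left out at a time the count ran from 1 to 2 in each mimic comparison, the 2 coming without mock 3, and was 0 throughout in the negative control against mock. There the count was also 0 with the replicate block on all 9 or, chosen after seeing the data, on the 6 arrays compared. The cause of these changes was not tested. The signal filter both adjusted over fewer genes and took the shared estimate of the spread from those genes alone, and these were not run apart. By the mean over the 9 arrays 11 genes would have been chosen, and by a group mean of 5 or more 8, with the same gene called. Over 27 named genes in 3 comparisons, 1482 alternative values were compared, and 95 lost a call and 11 gained one. The 1482 include many values of differences that were not called at the outset and so could not lose a call. The 95 are therefore not a share of the calls, which were less stable than 95 of 1482 would make them look. In 32 cases a value that was not called took the other sign. Scaling moved the median of all genes by less than 0.1.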

Other observations

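The solute carrier symbols under the signal threshold were 6 transporter genes and 13 noncoding RNAs. Among these, SLC25A15, the mitochondrial carrier that exchanges ornithine for citrulline, was the 1 gene called. It was picked out after its values were seen. It read 2.52, 2.92 and 2.88 in the mimic, against 3.17, 3.44 and 3.41 in the negative control and 3.42, 3.29 and 3.38 in mock, with the mimic arrays below all 6 others. Its mimic mean of 2.77 lies within the 1.77 to 2.82 of the luminal markers near the array median, and its negative control and mock means, 3.34 and 3.36, lie above that range. As probes differ in brightness, other features give no firm background for this one. The mimic signal of SLC25A15 is thus not shown to be above background, and no size of the fall is given. It was called lower than in the negative control (limma adjusted p = 0.038), where 3.18% of all genes were called. It was also called lower than in mock (limma adjusted p = 0.032), where 3.90% were. Against the negative control the call was lost with any 1 array left out except negative control 1 (adjusted p up to 0.12). Against mock it was lost without mock 1, 2 or 3, mimic 1 or mimic 3 (adjusted p up to 0.11). The other ornithine carrier, SLC25A2, had means of 3.00, 2.91 and 3.02 in the mimic, negative control and mock.

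The 13 noncoding RNAs with a solute carrier symbol under the threshold, most of them antisense or divergent transcripts, had group means between 1.40 and 2.80. By limma 0 of them were called in any comparison. In the mimic against the negative control, the mimic against mock and the negative control against mock, 1, 0 and 0 had an unadjusted p under 0.05. Over all genes 3.18%, 3.90% and 0.645% were called in these comparisons, and 16.0%, 17.5% and 11.0% had an unadjusted p under 0.05. With 13 genes of low signal, these counts say little about them.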
